A study of Mus musculus with 6 samples.

Results

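Smooth muscle and pericyte genes are described here in tumours of 344SQ, a transplantable mouse lung adenocarcinoma line. The genes are Acta2, Tagln, Myh11, Cnn1, Des, Rgs5, Pdgfrb, Cspg4, Mcam and Pdgfra, read by all 21 probe sets that the platform annotation assigns to one of these symbols alone. They are 10 of 18193 named genes and 21 of 45037 probe sets. The 344SQ cells come from a KrasLA1/+; p53R172HdelG/+ mouse and were grown under the skin of syngeneic mice. Flow cytometry split the tumours into fractions called CD133 high and CD133 low, and RNA of each was measured on 3 Affymetrix arrays. Both fractions come from the same tumour model, and no drug, other genotype or time point is named. The study's title concerns a cell population prone to metastasis and sensitive to Notch inhibition. The sources used here give neither the age or strain of the hosts, nor the number of tumours, nor any pooling. Replicate numbers follow accession order and pair no arrays.

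Smooth muscle cells contract through actin and myosin filaments, and much of their contractile machinery is switched on by serum response factor (SRF) together with its cofactor myocardin. Pericytes are mural cells wrapped around capillaries. They are recruited by endothelial PDGF-B, which acts on the receptor encoded by Pdgfrb, and they share several markers with smooth muscle. In tumours, activated fibroblasts also carry Acta2, Tagln and the PDGF receptors, so none of the genes marks one cell type alone.

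Acta2 encodes smooth muscle alpha-actin and is a textbook target of SRF, which binds the CArG box, a site with CC and GG around 6 bases of A or T. Acta2 was the single gene of the 10 whose fractions did not overlap at the brightest probe set. Its RefSeq promoter is shown because, of the 7 available, it alone held this site with up to 1 mismatch. It runs from 250 bases before to 50 bases after the transcript start on the minus strand of GRCm38.p6 at chr19:34255324-34255623. Capitals mark CArG boxes with up to 1 mismatch in the middle.
Acta2: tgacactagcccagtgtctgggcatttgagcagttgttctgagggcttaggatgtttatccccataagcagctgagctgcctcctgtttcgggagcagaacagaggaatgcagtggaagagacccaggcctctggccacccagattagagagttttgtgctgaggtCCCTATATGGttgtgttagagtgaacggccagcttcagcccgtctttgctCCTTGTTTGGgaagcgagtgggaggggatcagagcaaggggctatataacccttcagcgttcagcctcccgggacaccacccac
The motif is its own reverse complement, so 1 search covers both strands. Of 32851 promoters of this length 9.98% held such a site and 1.63% an exact one. Among the 7 genes with a promoter in the table, Acta2 alone held the motif with a mismatch, and no gene held an exact one. A match describes letters and is no evidence of binding.

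The arrays do not fall cleanly into the 2 fractions. CD133 high replicate 1 had a mean Spearman rho of 0.931 with the other CD133 high arrays and of 0.973 with the CD133 low arrays (over probe sets, which are no independent replicates). The bacterial hybridisation controls averaged 10.18 on CD133 high replicate 1, 11.05 and 10.81 on CD133 high replicates 2 and 3, and 9.94 to 10.28 on the CD133 low arrays. For Gapdh, the 3′ control probe set minus the mid-transcript one gave 0.44 and 0.46 on CD133 high replicates 2 and 3, against −0.13 on replicate 1 and −0.09 to −0.07 on the CD133 low arrays. Prom1, the gene of the sorted antigen, read 6.80, 6.63 and 6.40 on the CD133 high arrays and 5.49, 5.92 and 6.06 on the CD133 low arrays. Its difference of 0.79 (SE 0.26) had an adjusted p of 0.297 in limma. All values are log2 probe set values as deposited, and a value in the lowest 25% of its own array is called dim here. In this material fewer cells of a type and less RNA per cell cannot be told apart.

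None of the 10 genes passed the test between the fractions. Differences at the brightest probe set of each gene ran from −0.41 (Rgs5) to 0.59 (Pdgfra), as CD133 high minus CD133 low, with 5 genes positive and 5 negative. The median of the 10 was 0.10, beside 0.00 over all genes. At an adjusted p under 0.05 in limma 0 of 10 genes and 0 of 21 probe sets were called, where 0.253% of all genes and 0.182% of all probe sets were. At an unadjusted p under 0.05 in limma there were again 0 of 10 genes and 0 of 21 probe sets, where 18.2% of all genes were past that mark. A test without moderation called 0 as well, but the share of all genes that it called was not counted.

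**Figure D1:**
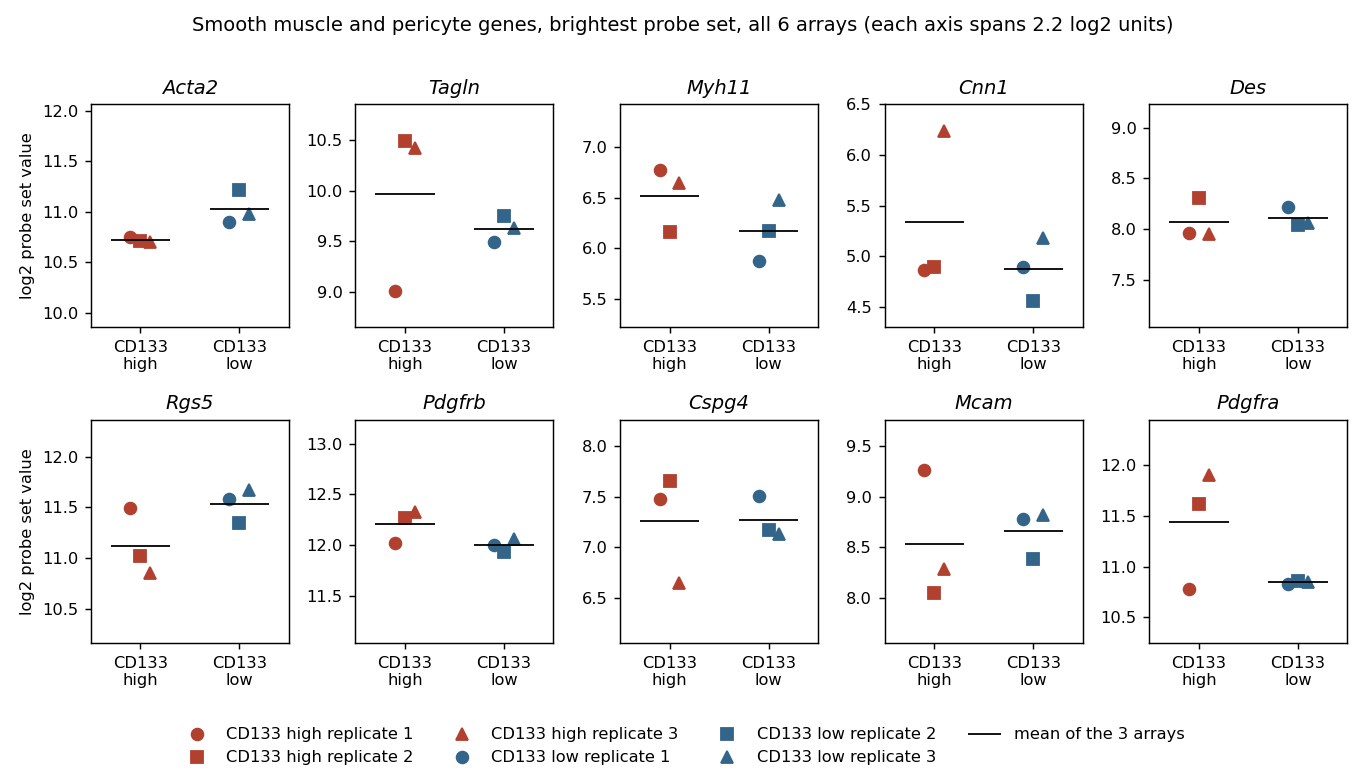
Log2 value of each gene at its brightest probe set on the 3 CD133 high arrays (left in each panel) and the 3 CD133 low arrays (right), with lines at the means; every axis spans the same log2 range. Acta2 is the single panel without overlap, with CD133 high arrays at 10.70 to 10.75 and CD133 low arrays at 10.90 to 11.22, while CD133 high replicate 1 lies apart from replicates 2 and 3 for Tagln, Mcam and Pdgfra.

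Among the contractile genes, Acta2 alone had fractions without overlap. Acta2 read 10.75, 10.71 and 10.70 on the CD133 high arrays and 10.90, 11.22 and 10.98 on the CD133 low arrays. All 3 CD133 high arrays lay below all 3 CD133 low arrays, a pattern shown by 23.6% of all genes in either direction and by 12.8% in this one. The difference was −0.31 (SE 0.15), with an adjusted p of 0.343 in limma and a 95% interval of −0.66 to 0.04. Its probe set is of a kind (_s_at) whose probes may match transcripts of more than 1 gene, so other actins could add to it. The second probe set of Acta2 stood at 5.24, 5.56 and 4.28 in CD133 high and at 5.86, 5.68 and 5.46 in CD133 low, a difference of −0.64 (SE 0.39). The third was dim on all 6 arrays.

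Tagln encodes transgelin (SM22-alpha), an actin-binding protein of smooth muscle and a second textbook SRF target. Its values were 9.01, 10.49 and 10.42 on the CD133 high arrays and 9.49, 9.75 and 9.63 on the CD133 low arrays. CD133 high replicate 1 was thus the lowest of the 6 arrays, and CD133 high replicates 2 and 3 were the highest. Over all arrays the difference was 0.35 (SE 0.39, 95% interval −0.59 to 1.28), with an adjusted p of 0.663 in limma. Acta2 and Tagln, although both belong to the SRF-driven contractile set, lay on opposite sides of the CD133 low mean on CD133 high replicates 2 and 3, at −0.32 and −0.33 for Acta2 and 0.86 and 0.79 for Tagln.

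Cnn1 encodes calponin, which binds actin and restrains the myosin ATPase. Its single probe set read 4.87, 4.90 and 6.24 on the CD133 high arrays and 4.90, 4.56 and 5.18 on the CD133 low arrays. It was dim on 3 of the 6 arrays, and the mean difference of 0.46 (SE 0.45) came with CD133 high replicate 3 alone above the CD133 low range. With CD133 high replicate 1 alone against the CD133 low arrays it was −0.01.

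Myh11, the smooth muscle myosin heavy chain, is the most specific of the contractile markers. At its brighter probe set Myh11 stood at 6.77, 6.16 and 6.64 in CD133 high and at 5.87, 6.17 and 6.48 in CD133 low, with overlapping fractions and a difference of 0.35 (SE 0.28, adjusted p of 0.529 in limma). The other probe set of Myh11 was dim on all 6 arrays. The pair differed in sign, at 0.35 and −0.42.

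Des encodes desmin, the intermediate filament protein of muscle cells, which is also used to label pericytes. At its brighter probe set Des read 7.96, 8.31 and 7.95 on the CD133 high arrays and 8.22, 8.04 and 8.06 on the CD133 low arrays. The fractions overlapped, and the difference was −0.03 with a 95% interval of −0.44 to 0.38. At the other probe set Des read 5.92, 4.45 and 4.98 in CD133 high and 6.07, 6.13 and 5.81 in CD133 low, a difference of −0.89 (SE 0.41) with an adjusted p of 0.34 in limma. There CD133 high replicate 1 lay within the CD133 low range, while replicates 2 and 3 lay below it and were dim.

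**Figure D2:**
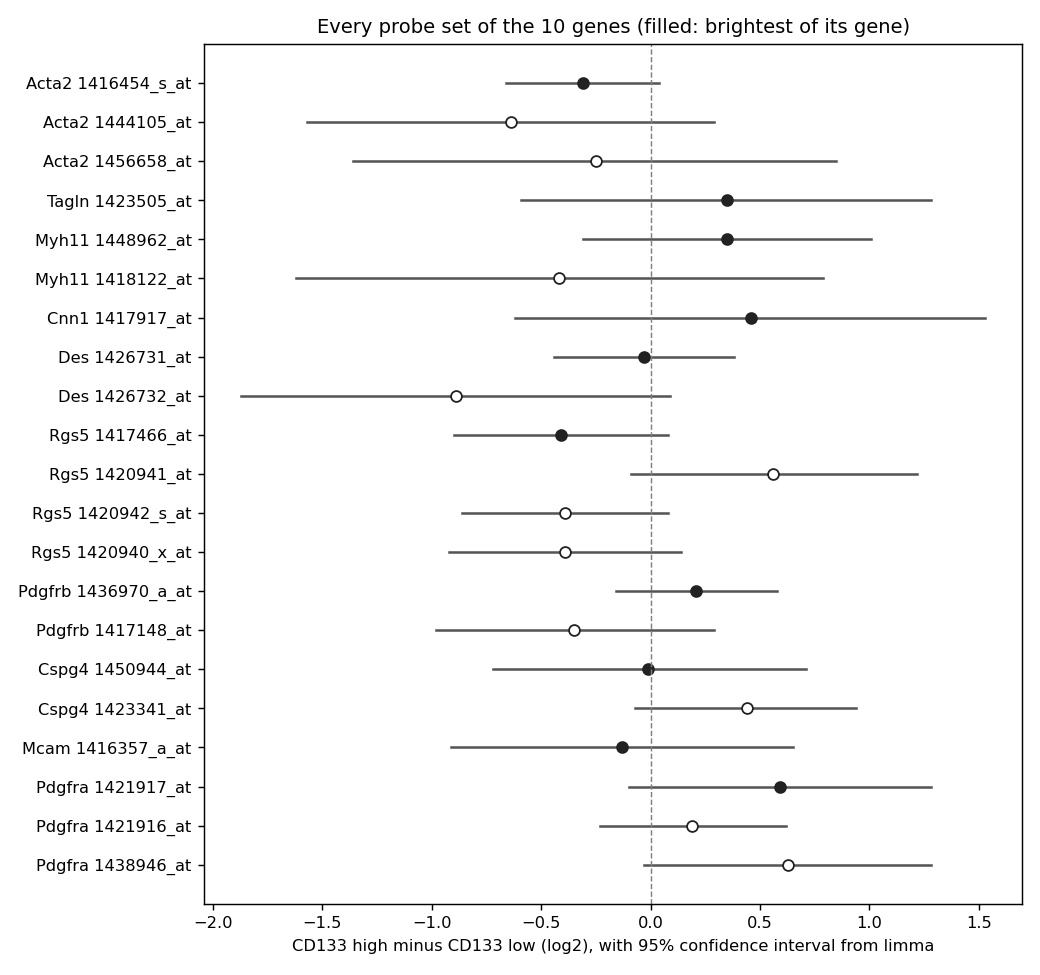
Log2 difference, CD133 high minus CD133 low (x axis), with its 95% confidence interval from limma for every probe set of the 10 genes (y axis); filled points are the brightest probe set of a gene. All 21 intervals include 0, and the probe sets of Rgs5, Pdgfrb, Myh11 and Cspg4 fall on both sides of it.

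Among the pericyte genes, Rgs5 had bright probe sets of opposite sign. Rgs5 encodes a regulator of G-protein signalling that is abundant in pericytes. At the brightest probe set, 1417466_at, it read 11.49, 11.02 and 10.85 on the CD133 high arrays and 11.58, 11.35 and 11.67 on the CD133 low arrays. CD133 high replicates 2 and 3 lay below every CD133 low array, whereas replicate 1 lay within their range. At 1420941_at, nearly as bright, Rgs5 stood at 11.13, 12.03 and 11.09 in CD133 high and at 10.88, 10.69 and 11.00 in CD133 low, so there all CD133 high arrays were above all CD133 low arrays. The differences were −0.41 (SE 0.21) and 0.56 (SE 0.28), with adjusted p of 0.36 and 0.352 in limma. The remaining probe sets of Rgs5 had differences of −0.39 each, which leaves 3 of 4 negative. Probe sets of a gene can read different stretches or ends of its transcripts; which stretch each one reads was not analysed here.

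Pdgfrb encodes the PDGF receptor beta, the receptor through which pericytes are recruited. At its brightest probe set Pdgfrb read 12.02, 12.27 and 12.33 on the CD133 high arrays and 12.00, 11.93 and 12.06 on the CD133 low arrays. CD133 high replicate 1 lay within the narrow CD133 low range, and the difference was 0.21 (SE 0.16, 95% interval −0.16 to 0.58, adjusted p of 0.505 in limma). The other probe set of Pdgfrb read 7.76, 6.89 and 7.34 in CD133 high and 7.51, 7.58 and 7.93 in CD133 low, a difference of −0.35 (SE 0.27). The direction for Pdgfrb thus depended on the probe set.

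Pdgfra, the PDGF receptor alpha, is a marker of fibroblasts and other mesenchymal cells more than of pericytes, and it was the single gene of the 10 with several probe sets that were all positive. At the brightest one Pdgfra read 10.78, 11.62 and 11.91 on the CD133 high arrays and 10.83, 10.86 and 10.85 on the CD133 low arrays. CD133 high replicate 1 fell just below the CD133 low arrays, which lay between 10.83 and 10.86, and replicates 2 and 3 lay above them by 0.77 and 1.07. The difference over all arrays was 0.59 (SE 0.29, 95% interval −0.10 to 1.28), with an adjusted p of 0.352 in limma. At the dimmer probe sets of Pdgfra the differences were 0.63 (SE 0.27, adjusted p of 0.327) and 0.19 (SE 0.18, adjusted p of 0.586), and at both all CD133 high arrays, replicate 1 included, lay above all CD133 low arrays. At 1438946_at the values were 7.00, 6.85 and 7.57 in CD133 high and 6.25, 6.46 and 6.82 in CD133 low.

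Cspg4 encodes the proteoglycan NG2, found on pericytes, on glial progenitors and on some tumour cells. At its brighter probe set Cspg4 read 7.48, 7.66 and 6.65 on the CD133 high arrays and 7.51, 7.17 and 7.13 on the CD133 low arrays, with overlap and a difference of −0.01 (95% interval −0.72 to 0.71). At the dimmer one Cspg4 read 6.56, 6.38 and 6.33 in CD133 high and 6.05, 6.02 and 5.89 in CD133 low. These values did not overlap, with a difference of 0.44 (SE 0.21) and an adjusted p of 0.352 in limma.

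Mcam encodes CD146, an adhesion molecule of endothelial cells, pericytes and smooth muscle. Its single probe set read 9.26, 8.05 and 8.29 on the CD133 high arrays and 8.78, 8.39 and 8.82 on the CD133 low arrays. CD133 high replicate 1 was the highest of the 6 arrays, and replicates 2 and 3 were the lowest. The difference was −0.13 (SE 0.33, 95% interval −0.91 to 0.65).

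Values varied more within the CD133 high fraction. For 9 of the 10 genes the SD over the CD133 high arrays exceeded that over the CD133 low arrays, as it did for 76.9% of all genes. Acta2 was the exception, with SDs of 0.0272 in CD133 high and 0.169 in CD133 low (n = 3 arrays each). Pdgfra had SDs of 0.587 in CD133 high and 0.0184 in CD133 low, and Tagln of 0.836 and 0.129 in the same fractions. CD133 high replicate 1 lay within the CD133 low range for 4 of the 10 genes, against 41.2% of all genes. Over the probe sets, 5 of 21 had fractions without overlap, where 20.8% of all probe sets did.

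**Figure D3:**
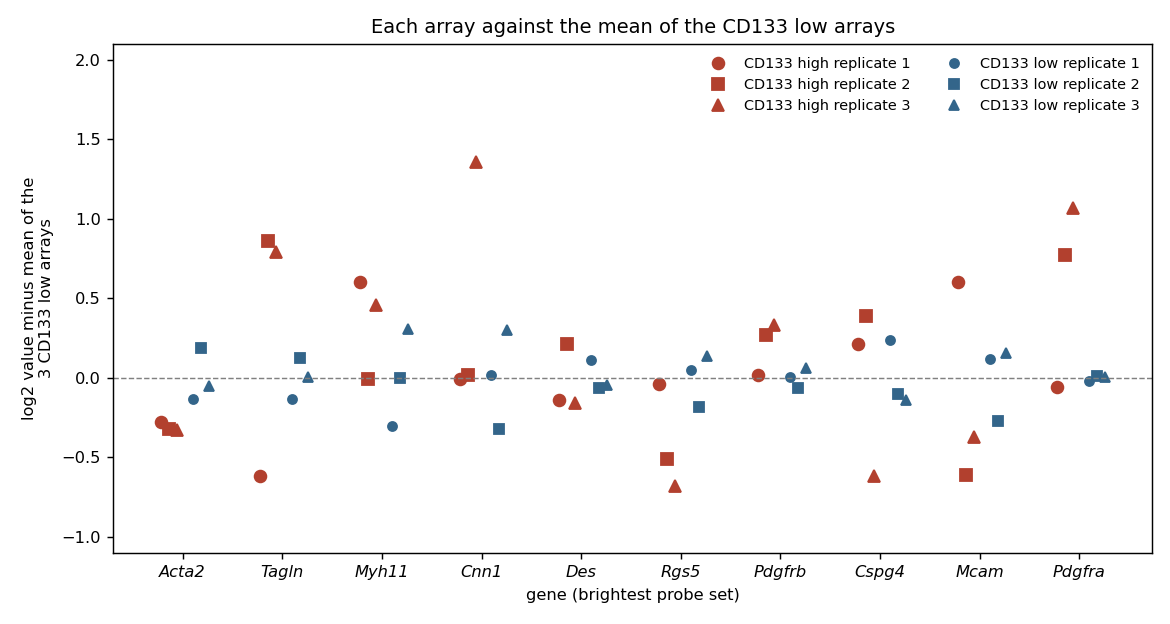
Log2 value on each array minus the mean of the 3 CD133 low arrays (y axis) for each gene at its brightest probe set (x axis), with CD133 high arrays to the left of the CD133 low arrays. For Tagln, replicate 1 of CD133 high lies at −0.62 while replicates 2 and 3 lie at 0.86 and 0.79, and for Mcam the order is turned, with 0.60 against −0.61 and −0.37.

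Without CD133 high replicate 1, the limma test called 3 of the 10 genes, where 26.3% of all genes were called, 11.7% as higher and 14.6% as lower. Tagln was higher by 0.83 (SE 0.12, adjusted p = 0.00921) and Pdgfra by 0.92 (SE 0.12, adjusted p = 0.00784). Rgs5 was lower by this fit at its brightest probe set, at −0.60 (SE 0.13, adjusted p = 0.0319). At 1420941_at, by contrast, Rgs5 stood at 0.71 (adjusted p of 0.133 in limma). Its remaining probe sets stood at −0.54 each (adjusted p of 0.0582 and 0.104). The dimmer probe sets of Pdgfra stood at 0.70 and 0.16 (adjusted p of 0.157 and 0.532). Of the 21 probe sets 4 were called, the fourth being the dimmer one of Des at −1.29 (adjusted p = 0.035), where 21.3% of all probe sets were. That probe set was dim on CD133 high replicates 2 and 3, and the brighter one of Des stood at 0.02 in this fit. With CD133 high replicate 1 alone against the CD133 low arrays, Tagln stood at −0.62, Pdgfra at −0.06 and Rgs5 at −0.04. Weighting the arrays by their fit called Pdgfra alone, at 0.82 (adjusted p = 0.0428), where 13.6% of all genes were called. The hybridisation controls and the Gapdh 3′ excess given above moved with the same arrays. With all arrays and the hybridisation controls as covariate, Tagln stood at −0.66, Pdgfra at −0.01 and Rgs5 at 0. In that fit 0 of the 10 genes were called, and the share of all genes called was not counted. The controls and the split among the CD133 high arrays go together, so this fit cannot separate them. The covariate was not tested without CD133 high replicate 1, and the part of the Gapdh 3′ excess was not tested.

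Genes linked to the 10 by function were divided as well, and with all 6 arrays none of them passed in limma. Of 17 other contractile genes measured, 0 rose and 0 fell, with a median difference of 0.00. An unadjusted p under 0.05 in limma was reached by 4 of the 17, and by 18.2% of all genes. Without CD133 high replicate 1, 3 of the 17 were called higher and 2 lower, where 26.3% of all genes were called. Myl9, a regulatory light chain of smooth muscle myosin, stood at 7.58 ± 0.231 in CD133 high and 8.23 ± 0.230 in CD133 low (SD, n = 3 arrays each), a difference of −0.66 with an adjusted p of 0.297. Cnn2, a calponin also made by non-muscle cells, differed by −0.51 (adjusted p of 0.296), and Ppp1r14a, an inhibitor of myosin phosphatase, by −1.90 (adjusted p of 0.297). Ppp1r14a was dim on CD133 high replicates 2 and 3, at 3.75 and 4.32. Synpo2, an actin-bundling protein, differed by 0.74 (adjusted p of 0.297). These 4 genes, named for the smallest p of the list, were the ones of the 17 with fractions without overlap, where 23.6% of all genes had none.

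The transcription factors that govern this programme gave no call either. Of 8 factors 0 rose and 0 fell in limma and the median was 0.34. An unadjusted p under 0.05 was reached by 3 of the 8, and by 18.2% of all genes. Without CD133 high replicate 1, 3 of the 8 were called higher and 0 lower, where 11.7% and 14.6% of all genes were. Tead1, a factor of the Hippo pathway that also binds muscle promoters, stood at 9.91 ± 0.308 in CD133 high and 9.04 ± 0.391 in CD133 low, a difference of 0.87 (adjusted p of 0.297). Gata6 differed by 0.61 and Foxf1, a factor of visceral mesenchyme, by 0.67. Mrtfb, an SRF cofactor of the myocardin family, differed by 0.40 (adjusted p of 0.397). Srf itself differed by −0.20, Mrtfa by −0.39, Klf4 by −0.32 and Myocd, the gene of myocardin, by 0.28, all named after their values were seen. Fractions did not overlap for 4 of the 8, Tead1, Gata6 and Foxf1 with CD133 high above and Srf with CD133 high below, where 23.6% of all genes showed no overlap.

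The PDGF ligands gave 0 calls in 4 genes, where 0.253% of all genes were called, and had a median of 0.39. An unadjusted p under 0.05 in limma was reached by 0 of the 4, and by 18.2% of all genes. Pdgfc, a ligand of the alpha receptor, averaged 10.76 ± 0.962 in CD133 high and 9.73 ± 0.124 in CD133 low, with a difference of 1.03 and an adjusted p of 0.325. On CD133 high replicates 1, 2 and 3 it lay at −0.08, 1.65 and 1.53 against the CD133 low mean, the split already seen for Pdgfra. Pdgfb, whose product recruits pericytes, differed by 0.20 and Pdgfa by −0.43. Without CD133 high replicate 1, Pdgfc was called higher (adjusted p = 0.00232 in limma) and Pdgfa lower (adjusted p = 0.0476). In that fit 11.7% of all genes were called higher and 14.6% lower.

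Among 14 other pericyte genes 0 rose and 0 fell in limma and the median was 0.07. An unadjusted p under 0.05 was reached by 2 of the 14, and by 18.2% of all genes. Without CD133 high replicate 1, 3 of the 14 were called higher and 2 lower, where 11.7% and 14.6% of all genes were. Ndufa4l2, a mitochondrial protein induced by hypoxia, differed by 1.53 (SE 0.60, adjusted p of 0.305), with 0.31, 2.02 and 2.26 on CD133 high replicates 1, 2 and 3 against the CD133 low mean. Gja4, the gap junction protein connexin 37 of arterial endothelium and mural cells, differed by −0.66 without overlap (adjusted p of 0.3). Tbx18, a transcription factor of mural cells, differed by 0.91 and Higd1b by −0.73.

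**Figure D4:**
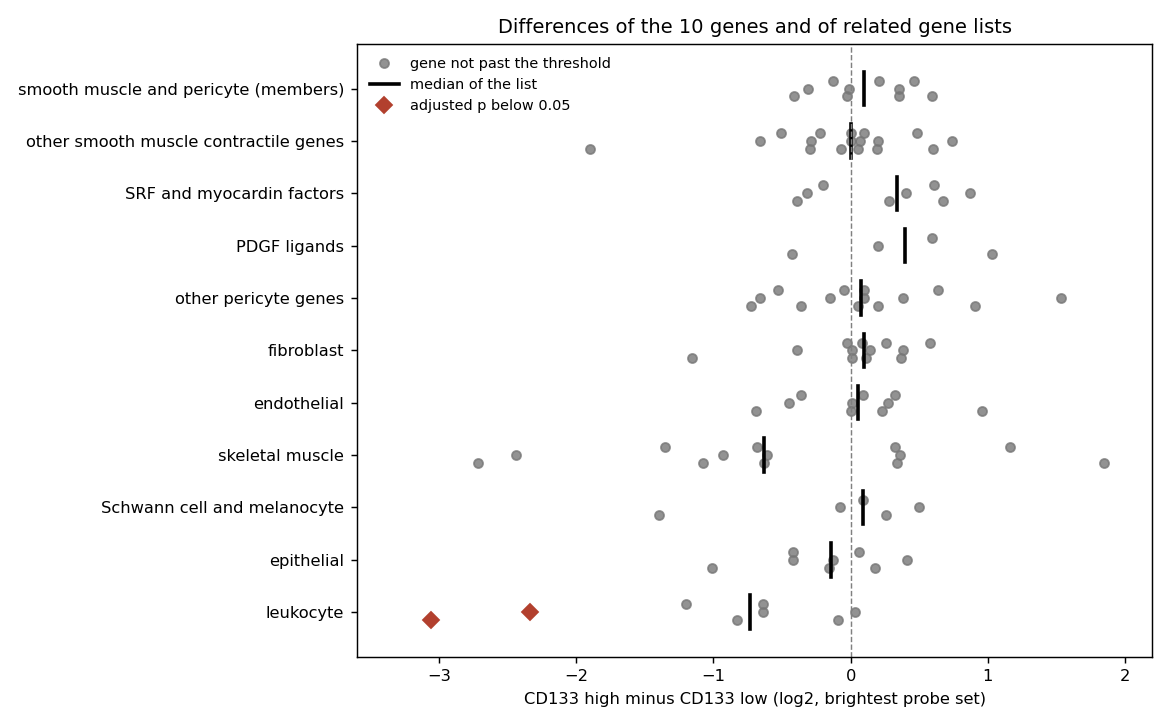
Log2 difference, CD133 high minus CD133 low (x axis), for each gene of 11 lists (y axis) at its brightest probe set, with a line at each list's median. The 10 smooth muscle and pericyte genes lie between −0.41 and 0.59, and the 2 genes past the threshold, Cd79a and Cd3e, are leukocyte genes at −3.06 and −2.34.

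With all 6 arrays, the markers of other cells that the fractions could hold gave 0 calls in limma, leukocytes apart. Without CD133 high replicate 1, 3 of 12 fibroblast markers were called higher and 2 lower, 1 of 10 endothelial markers higher and 3 lower (median −0.11), and 1 of 8 epithelial markers higher and 1 lower. In that fit 0 of 13 skeletal muscle genes were higher and 1 lower, and of 5 Schwann cell and melanocyte markers 0 were higher and 1 lower. Of all genes 11.7% were called higher and 14.6% lower there. The 12 fibroblast markers had a median of 0.10, with 1 at an unadjusted p under 0.05 in limma (Thy1, −1.16). For the 10 endothelial markers the median was 0.05, and 1 was under that mark (Egfl7, a protein secreted by endothelium, 0.96). Against the CD133 low mean Egfl7 lay at 0.13, 1.38 and 1.37 on CD133 high replicates 1, 2 and 3. Its replicate 1 value was within the CD133 low range. Differences were above 0 for 7 of the endothelial markers and below 0 for Emcn (−0.69), Vwf (−0.45) and Pecam1 (−0.36). Without CD133 high replicate 1 these last 3 stood at −1.18, −0.90 and −0.87 and were the 3 called lower. Vwf and Pecam1 were named after their values were seen. The 13 skeletal muscle genes had a median of −0.63, with 4 at an unadjusted p under 0.05 in limma, where 18.2% of all genes were. Among the 4 was Tnnt3, a troponin of fast fibres, which averaged 2.31 in CD133 high, in the dim range, and 5.03 in CD133 low. Every gene of this list except Ttn and Ckm was dim on at least 2 of the 6 arrays. Of the Schwann cell and melanocyte markers 5 of 7 were measured, with a median of 0.09 and with 3 positive and 2 negative. Ngfr, at −1.40, was the one with an unadjusted p under 0.05. Fractions did not overlap for 2 of the 5, where 23.6% of all genes showed no overlap. These were Ngfr with CD133 high below and Sox10, at 0.50, with CD133 high above. The 8 epithelial markers, which mark the tumour cells themselves, had a median of −0.14 and 0 at an unadjusted p under 0.05. Of these 8, 3 were positive and 5 negative. Krt8 stood at 12.79 in CD133 high and 12.39 in CD133 low. Krt18 went the other way, at 12.48 in CD133 high and 12.89 in CD133 low, as did Cldn4, at 7.23 and 7.65. Esrp1 was listed at 0 on all CD133 high arrays and on 2 of the 3 CD133 low arrays.

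Leukocyte markers were the one list with calls over all 6 arrays. The median difference was −0.74, and −1.11 without CD133 high replicate 1. Of 8 genes 2 fell in limma, where 0.253% of all genes were called, and 6 fell without CD133 high replicate 1, where 14.6% of all genes were lower. Those called with all arrays were Cd79a of B cells at −3.06 (adjusted p = 0.0168) and Cd3e of T cells at −2.34 (adjusted p = 0.023). The fall was not shared evenly by the 8 genes, of which 7 were negative and 1 positive. Ptprc differed by 0.03 and Itgam by −0.09, both named after their values were seen. The log2 of the summed level of this list was 14.42 to 15.34 on the CD133 high arrays and 15.35 to 15.39 on the CD133 low arrays. For the 10 smooth muscle and pericyte genes the same sum was 13.57 to 13.85 in CD133 high and 13.61 to 13.68 in CD133 low, with overlap. Whether a changed share of leukocyte RNA moves the values of stromal genes was not tested.

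Genes whose values followed Acta2 or Pdgfrb most closely over the 6 arrays were taken from 8122 genes with a mean of at least 8. For Acta2 these were Pdxdc1, Mrps30 and Ift140, at Pearson r of 0.992, 0.99 and 0.987, with 152 genes above 0.9. For Pdgfrb they were Lpp, Cpne3 and Setd7, at 0.998, 0.996 and 0.996, with 1098 genes above 0.9. The genes like Pdgfrb share the split between CD133 high replicates 2 and 3 and the rest. Lpp, for example, stood at 10.48, 11.96 and 12.24 in CD133 high and at 10.29, 9.97 and 10.64 in CD133 low. Acta2 did not show that split, with 10.75, 10.71 and 10.70 on the CD133 high arrays. Over 6 arrays all these correlations describe likeness only.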

How the data were processed

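The deposited table holds log2 probe set values of 6 arrays, a scale judged from the values, and the sources used here do not give the authors' summary and normalization of probes. All 64 control probe sets were left out. Symbols came from the platform annotation, updated by Entrez ID through a RefSeq gene table, which matched 34741 of 34945 probe sets with 1 gene and changed 0 symbols; 932 had several genes and 9160 are unnamed here. A gene's values are those of its brightest probe set, by the mean over all arrays. The comparison used limma 3.58.1 (R 4.3.3; linear model, moderated with a variance trend, two-sided, Benjamini-Hochberg over 45037 probe sets, threshold 0.05), without covariate, further normalization or filter; the steps were tested on simulated data. Differences are CD133 high minus CD133 low; intervals are 95% confidence intervals of that model. With 3 arrays against 3, an exact permutation p cannot go below 0.1, and none was used. No source says that the arrays come from separate tumours or sorts; the p-values then reflect only the spread between these samples, possibly a technical one. The number of arrays limits precision.

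The genes and lists were chosen with earlier results of these data known. Named were all 10 genes, Prom1, up to 4 genes of each of 10 other lists with the smallest p, and the 3 genes most like Acta2 and Pdgfrb. Cd79a and Cd3e fall under that rule. Alternatives changed normalization, filter, floor, variance model, weights, covariate, probe set choice, threshold or arrays. Promoters are from RefSeq, GRCm38.p6.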

Additional observations from a re-analysis of the deposited data

How the results depend on the processing

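No call was made for any of the 10 genes with quantile normalization, equal 75th percentiles, the dimmest 50% of probe sets left out, a floor at 4.96, another variance model, a threshold of 0.1, the hybridisation controls as covariate, the mean over probe sets or without probe sets of shared sequence. Probe sets of shared sequence were picked by the endings _s_at, _x_at and _a_at alone. Whether each of them matches another gene was not checked. Among the alternatives, the share of all genes called was counted with array weights and without CD133 high replicate 1 only. Array weights called 1 gene and 1 probe set. Leaving out single arrays gave 0 to 3 genes and 0 to 4 probe sets, where every call came without CD133 high replicate 1, and a median difference of 0.06 to 0.16. That median, 0.10 over all arrays, was −0.02 with the dimmest 50% left out, 0.03 with the covariate, −0.05 with the mean of probe sets, −0.01 without shared-sequence probe sets and −0.03 without CD133 high replicates 2 and 3, where the lone CD133 high array is assumed to vary like the others.

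Acta2 stayed negative under all 19 alternatives (−0.64 to −0.22). For many of these the sign was fixed beforehand. The variance models and the threshold leave every difference or its sign as it was. For Acta2, whose fractions did not overlap, leaving out arrays cannot turn the sign either. Of 187 gene results under alternatives, 19 changed sign, none of them called. With the covariate Tagln turned to −0.66, Cspg4 to 0.10, Mcam to 0.73 and Pdgfra to −0.01, and Rgs5, at −0.41 without it, came to 0.00 (limma, adjusted p of 1). With the mean of probe sets Myh11 turned to −0.03, Pdgfrb to −0.07 and Cspg4 to 0.21, and without shared-sequence probe sets Pdgfrb to −0.35. Without CD133 high replicates 2 and 3 Tagln turned to −0.62, Cnn1 to −0.01, Cspg4 to 0.21, Mcam to 0.60 and Pdgfra to −0.06. Leaving out single arrays gave −0.15 to 0.03 for Des, −0.20 to 0.30 for Cspg4 and −0.49 to 0.11 for Mcam. The probe set rules follow from their construction; for the other settings the cause was not tested. Mcam has no value without shared-sequence probe sets, since its single probe set ends in _a_at. Myh11 and Cnn1 have none with the dimmest 50% left out. No paired analysis was possible because the labels carry no replicate numbers.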
